A study of Homo sapiens with 6 samples.

Results

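The genes described here are 10 abundant or widely used components of the actin cytoskeleton: the cytoplasmic actins ACTB and ACTG1, the monomer binders TMSB10 (thymosin beta 10) and PFN1 (profilin 1), the filament-severing proteins CFL1, CFL2, DSTN and GSN, and the crosslinkers ACTN1 and ACTN4. They were taken by gene name from the deposited table of 58735 genes, and all 10 were present once. The table comes from RNA sequencing of 6 libraries labelled MB231 cells. The label is read here as MDA-MB-231, an established human breast cancer line, and the identity rests on the label alone. Several of the epithelial and mesenchymal marker levels given below are not those usual for that line. In the table, 3 libraries are labelled shNC with genotype WT and 3 are labelled shPAK5 with genotype PAK5 knockdown. The labels give no other treatment, no time after knockdown and no clone, and they are silent on whether replicates are separate cultures. The p-values thus reflect the spread among these 6 libraries alone, which may be technical. The values are FPKM (fragments per kilobase of exon, scaled by the authors for library size as described under processing). Whole reads could be worked back from them, between 15085168 and 18146091 per library.

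Actin exists as monomers and as filaments, and cells control how fast monomers are added and removed. Thymosins hold monomers in reserve, profilins hand them to growing ends, proteins of the ADF/cofilin family and gelsolin sever filaments, and alpha-actinins tie filaments into bundles. PAK kinases are effectors of the small GTPases RAC1 and CDC42, and they act on actin in part through LIM kinases, which phosphorylate a serine near the start of cofilins and thereby switch off severing. The comparison of shPAK5 with shNC therefore asks whether the mRNAs of these actin genes differ when PAK5, a member of this kinase family, is targeted. Phosphorylation itself was not measured.

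The serine codon that LIM kinases act on is shown in capitals in the first 30 coding bases of the 3 ADF/cofilin genes, because this site links PAK signalling to the family. The bases come from the principal transcripts in GENCODE 29, on chromosomes 11, 14 and 20.
CFL1: atggccTCCggtgtggctgtctctgatggt
CFL2: atggctTCTggagttacagtgaatgatgaa
DSTN: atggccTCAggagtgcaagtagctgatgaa
All 3 genes carry a serine codon at codon 3, counted from the start codon, and each spells it differently. Over the whole coding sequence, 70.1% of the aligned bases were identical between CFL1 and CFL2, 64.1% between CFL1 and DSTN and 68.3% between CFL2 and DSTN.

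The first 60 coding bases of the cytoplasmic actins are shown because differences of this kind help to tell apart reads from their coding parts. Capitals mark the 10 bases that differ between the principal transcripts of ACTB (chromosome 7) and ACTG1 (chromosome 17) in GENCODE 29.
ACTB: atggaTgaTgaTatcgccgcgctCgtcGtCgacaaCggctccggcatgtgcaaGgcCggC
ACTG1: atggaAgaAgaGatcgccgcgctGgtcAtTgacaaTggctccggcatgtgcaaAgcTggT
Over 1128 coding bases, stop codon included, the actins were 91.2% identical, and the longest identical run was 59 bases. The alpha-actinins ACTN1 and ACTN4 were 82.5% identical, with a longest identical run of 73 bases.

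TMSB10 is printed whole, with start and stop codon in capitals, because it was the most abundant of the 10 mRNAs and encodes a protein of 44 codons (GENCODE 29, chromosome 2).
TMSB10: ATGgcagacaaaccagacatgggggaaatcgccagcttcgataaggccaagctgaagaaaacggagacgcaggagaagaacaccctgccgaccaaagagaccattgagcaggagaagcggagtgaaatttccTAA

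Because several of these genes have close copies, the share of each principal transcript that also stands in transcripts of other genes was counted in windows of 50 bases, an arbitrary length because no source used here gives the read length. ACTB shared 10.3% of its windows with 18 other genes, led by the pseudogene ACTBP2 and genes of the POTE family, and ACTG1 shared 3.58%. PFN1 shared 13.8%, with the pseudogene PFN1P1 and with ENO3, and ACTN4 shared 17.4%, mostly with CAPN12, whose exons cover part of the same bases. For TMSB10, CFL1, CFL2, DSTN and ACTN1 the share was between 0.912% and 4.10%, and GSN shared none. Few reads were listed under pseudogenes named after the members: over 6 libraries PFN1 pseudogenes had 308 reads against 70278 for PFN1, DSTN pseudogenes had 516 against 47036 for DSTN, and those of the other 8 genes had 92 reads or fewer each. No source used here says how the authors treated reads that match several genes.

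The 10 genes ranged from rank 1 to rank 7256 among the 15478 protein-coding genes of the nuclear genome with reads. TMSB10, at a mean of 3626 FPKM over 6 libraries, held rank 1, ACTG1 at 1503 FPKM held rank 6 and ACTB at 809 FPKM rank 15. FTL, S100A4, RPL8 and RPL41 stood between TMSB10 and ACTG1. PFN1, at 350 FPKM, held rank 53. CFL1, DSTN and ACTN4 followed at 122, 121 and 109 FPKM, and their ranges over libraries overlapped. Within libraries CFL1 lay above ACTN4 in 6 of 6, while DSTN lay above CFL1 in 4 of 6 and above ACTN4 in 4 of 6. GSN at 28.4 FPKM, ACTN1 at 19.0 FPKM and CFL2 at 3.64 FPKM did not overlap with each other or with the genes above them. Together the 10 genes made up between 3.09 and 3.33% of the summed FPKM of nuclear protein-coding genes, and TMSB10 alone held 1.73% on average. The share of the 10 was 3.27 ± 0.0574% (SD, n = 3) in shNC and 3.10 ± 0.0145% in shPAK5. The groups did not overlap in this share, and the difference was not tested.

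The levels depend on the length by which the authors divided. The length in the table counts all bases that are exonic in any transcript of the gene, which for GSN is 4.15 times and for CFL1 3.12 times the APPRIS principal transcript, but for TMSB10 is the same length. Per base of the principal transcript the mean level of CFL1 would be 380 FPKM and that of GSN 118 FPKM, while DSTN would be at 128, ACTN4 at 134 and ACTN1 at 53.4 FPKM. The leading order of TMSB10, ACTG1, ACTB, PFN1 and CFL1 was the same with either length. DSTN and ACTN4 exchanged places, and CFL2 was last with both. The ranks among all protein-coding genes were not worked out per principal transcript.

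**Figure D1:**
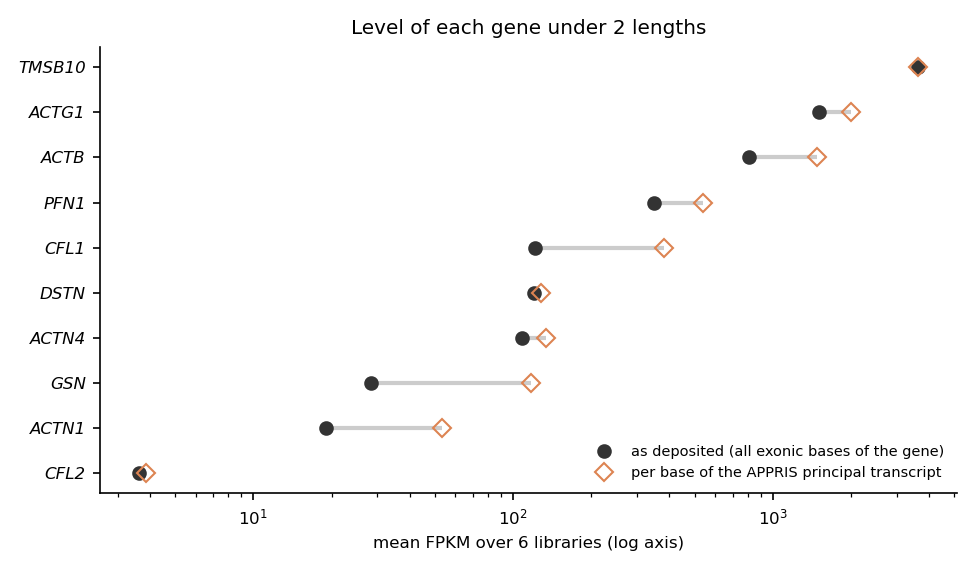
Mean FPKM of each gene over 6 libraries on a log axis, as deposited (filled circles) and per base of the APPRIS principal transcript (open diamonds). TMSB10 leads at 3626 FPKM and CFL2 is last, and the gap between the symbols is widest for GSN and CFL1.

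Before the comparison, 2 features of the libraries need stating. PAK5 had 0 reads in each of the 6 libraries, which allows up to 3 reads or 0.0335 to 0.0403 FPKM per library for counting error only, so the knockdown cannot be checked from its mRNA. shNC replicate 1 stood apart from the other shNC libraries (chi-square per degree of freedom of 9.31 and 5.36 against 3.22 for the remaining shNC pair and 2.32 to 2.82 between shPAK5 libraries). Genes of low GC content were higher in it, by a median of 0.18 on the log2 scale for genes up to 40% GC, and genes over 60% GC were lower by a median of -0.13. The epithelial markers KRT19, KRT8 and KRT18 had means over 6 libraries of 1438, 980 and 839 FPKM, and EPCAM was high. CDH1 was at 4.64 ± 0.180 FPKM in shNC and 5.84 ± 0.0905 in shPAK5 (SD, n = 3). Of these 5 epithelial markers 3 were higher and 2 lower in shPAK5, at log2 differences from -0.12 to 0.28, and none passed in limma. Of 7 mesenchymal markers, VIM was at 149 ± 10.2 and 164 ± 3.09 FPKM and ZEB1 at 2.58 ± 0.196 and 2.24 ± 0.196 FPKM. FN1 was at 0.0319 ± 0.0201 and 0.0863 ± 0.0223 FPKM, SPARC was at 0.174 ± 0.0384 and 0.0669 ± 0.0318 FPKM, and CDH2, COL6A2 and TWIST1 had 0 reads in all 6 libraries. Markers of fibroblasts, blood and vessel summed to at most 0.315 and 0.120 FPKM in any library. Of 7 muscle markers 3 had 0 reads, and only TNNT1, a troponin of slow muscle, exceeded 1 FPKM (7.87 ± 0.439 in shNC and 5.95 ± 0.500 in shPAK5). The part of these marker levels in the differences below was not tested.

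Among the actins, ACTB encodes beta-actin, the main actin of cell edges (GRCh38 chromosome 7, minus strand, 5527147 to 5563784). It was at 827, 857 and 859 FPKM in shNC replicates 1 to 3 and at 773, 777 and 763 FPKM in shPAK5 replicates 1 to 3. All 3 shPAK5 libraries lay below all 3 shNC libraries, and the ratio of means was 0.910. The log2 difference, shPAK5 minus shNC, was -0.14 ± 0.03 (SE), with a 95% interval from -0.21 to -0.06, and it did not pass (limma adjusted p = 0.163). In bulk RNA, fewer cells of a type and less RNA per cell cannot be told apart. ACTG1 encodes gamma-actin (chromosome 17, minus strand, 81509971 to 81523847). Its values were 1477, 1596 and 1568 FPKM in shNC and 1453, 1457 and 1467 FPKM in shPAK5. The groups again did not overlap, but shNC replicate 1 stood only just above the shPAK5 libraries, the groups overlapped with TPM scaling and with quantile normalization, and the log2 difference was -0.08 ± 0.04 (limma adjusted p = 0.295). The ratio of ACTG1 to ACTB lay between 1.79 and 1.92 in all 6 libraries, with 1.82 ± 0.0382 (SD, n = 3) in shNC and 1.89 ± 0.0256 in shPAK5. The groups did not overlap in this ratio, and the difference was not tested. Per base of the principal transcripts, the ratio of the means over 6 libraries was 1.34. Gamma-actin mRNA was the more abundant per length in both groups.

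Of the other 5 actin genes looked up, the smooth muscle actin ACTA2 had a mean of 0.329 ± 0.0964 FPKM in shNC against 0.313 ± 0.0561 FPKM in shPAK5 (SD, n = 3), ACTA1 of skeletal muscle had 3 reads over 6 libraries, and ACTC1, ACTG2 and ACTBL2 had 0 reads. Actin mRNA in these libraries was thus almost wholly that of ACTB and ACTG1.

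Of the monomer binders, TMSB10 (chromosome 2, plus strand, 84905625 to 84906675) was at 3818, 3464 and 3857 FPKM in shNC and at 3487, 3559 and 3572 FPKM in shPAK5. The shNC libraries spread over a wider range than the shPAK5 libraries, and shNC replicate 2 lay below all of these. Its log2 difference was -0.07 ± 0.04 (SE) (limma adjusted p = 0.466), and it was -0.12 without shNC replicate 2 and -0.04 without shNC replicate 3. With quantile normalization it was 0.00. That method gives equal values to a gene that keeps its rank in each library, so this 0.00 cannot show whether TMSB10 differed. TMSB4X, the related thymosin beta 4 and not one of the 10, was at 797 ± 29.4 and 782 ± 32.4 FPKM (SD, n = 3), while TMSB15A and TMSB15B had 0 reads. PFN1 (chromosome 17, minus strand, 4945652 to 4949061) was at 358, 364 and 380 FPKM in shNC and at 325, 329 and 343 FPKM in shPAK5. The groups did not overlap except with quantile normalization, and the log2 difference of -0.15 ± 0.04, with a 95% interval from -0.23 to -0.06, did not pass (limma adjusted p = 0.188). Its paralog PFN2 was at 33.1 ± 2.65 and 34.1 ± 0.537 FPKM.

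Of the 4 genes of severing proteins none passed in limma, and CFL2 and DSTN were above 0 and CFL1 and GSN below. With the GC correction DSTN was at 0.11 ± 0.05 (SE) and CFL2 at 0.02 ± 0.06. CFL1 was then at 0.0038 ± 0.05 and GSN at 0.0039 ± 0.04, both well within their SE of 0. CFL1, the main cofilin of non-muscle cells (chromosome 11, minus strand, 65823022 to 65862026), was at 125, 118 and 127 FPKM in shNC and at 119, 118 and 124 FPKM in shPAK5, with overlapping groups and a log2 difference of -0.03 ± 0.04 (SE) (limma adjusted p = 0.711), which with 1 library left out ranged from -0.07 without shNC replicate 2 to -0.01 without shNC replicate 3. Of its exonic bases 19.0% overlap exons of SNX32 or MUS81, and without strand the reads on those bases are of uncertain origin. CFL2, the muscle cofilin (chromosome 14, minus strand, 34706769 to 34714823), was at 3.94, 3.06 and 3.19 FPKM in shNC and at 4.09, 3.62 and 3.95 FPKM in shPAK5, and rested on 369 to 533 reads per library. DSTN, which encodes destrin or ADF (chromosome 20, plus strand, 17569863 to 17609919), was at 129, 99.5 and 110 FPKM in shNC and at 130, 129 and 127 FPKM in shPAK5. For both CFL2 and DSTN, shNC replicate 1 lay among the shPAK5 libraries and the other shNC libraries lay below all of them. The log2 differences were 0.16 ± 0.09 for CFL2 (limma adjusted p = 0.394) and 0.19 ± 0.08 for DSTN (limma adjusted p = 0.288). Without shNC replicate 2 they were 0.10 and 0.11 and without shNC replicate 1 they were 0.24 and 0.29. The ratio of DSTN to CFL1 was 0.914 ± 0.101 (SD, n = 3) in shNC and 1.07 ± 0.0385 in shPAK5, with overlapping groups, and per base of the principal transcripts it was 0.338 over 6 libraries. GSN, the calcium-dependent severing and capping protein gelsolin (chromosome 9, plus strand, 121207794 to 121332843), was at 26.6, 30.5 and 29.3 FPKM in shNC and at 27.5, 28.6 and 28.0 FPKM in shPAK5, where the shPAK5 values lay inside the range of shNC, with a log2 difference of -0.04 ± 0.06 (limma adjusted p = 0.775). That difference was -0.09 without shNC replicate 1 and 0.01 without shNC replicate 2.

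Of the alpha-actinins, ACTN4 (chromosome 19, plus strand, 38647649 to 38731583) was at 106, 116 and 118 FPKM in shNC and at 101, 107 and 104 FPKM in shPAK5. The groups overlapped only through shNC replicate 1, which lay just below shPAK5 replicate 2, and the log2 difference was -0.12 ± 0.05 (SE) (limma adjusted p = 0.269). ACTN1 (chromosome 14, minus strand, 68874143 to 68979440) was at 18.6, 19.8 and 19.7 FPKM in shNC and at 18.2, 19.0 and 18.5 FPKM in shPAK5, with a log2 difference of -0.06 ± 0.05 (limma adjusted p = 0.545). ACTN4 exceeded ACTN1 by a ratio of 5.56 to 5.97 across the 6 libraries, or 2.50 over 6 libraries per base of the principal transcripts. The ratio was 5.85 ± 0.129 (SD, n = 3) in shNC and 5.60 ± 0.0414 in shPAK5, without overlap between groups, and the difference was not tested. The muscle alpha-actinins ACTN2 and ACTN3 had 3 and 2 reads over 6 libraries.

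**Figure D2:**
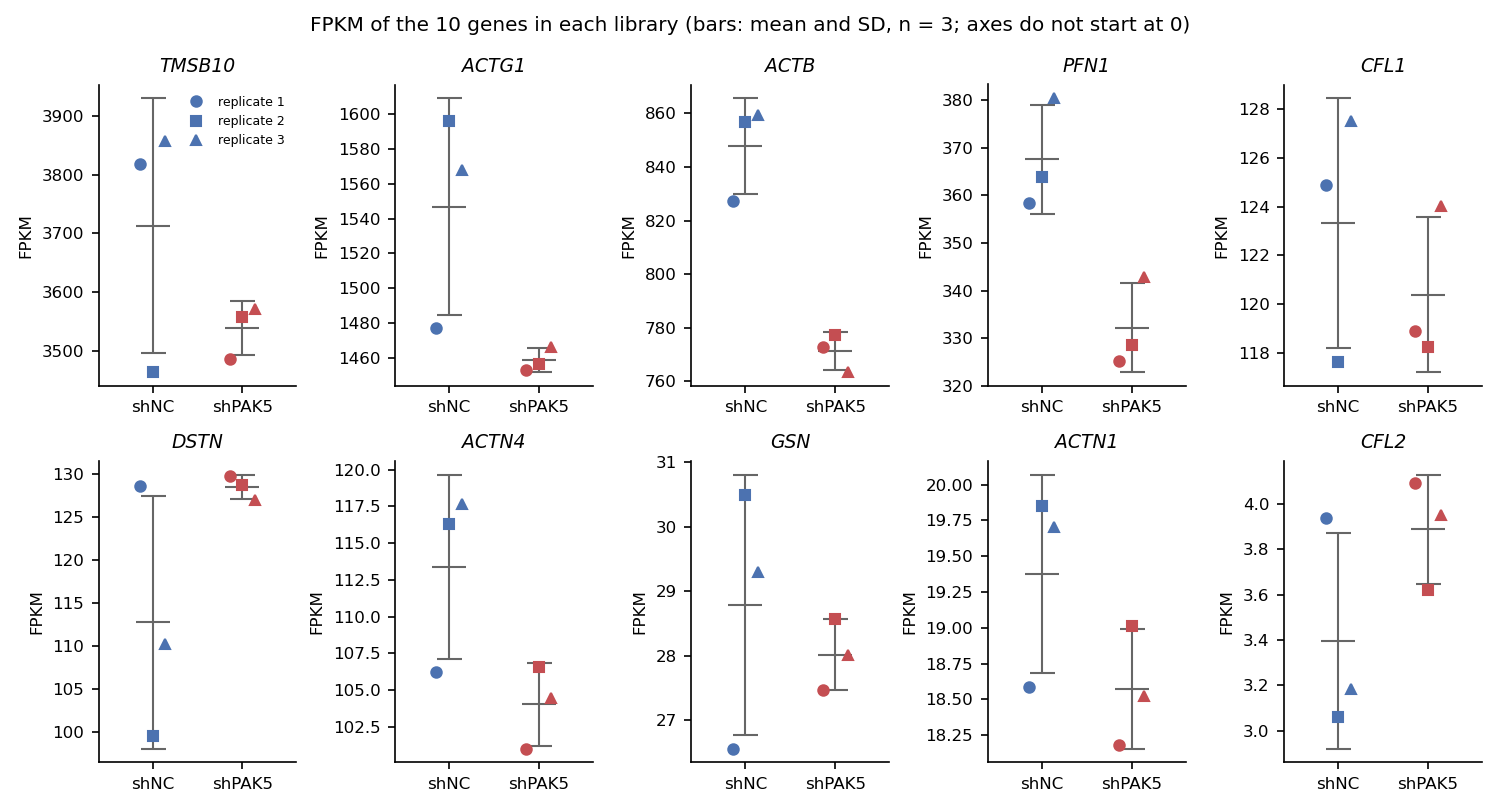
FPKM of each of the 10 genes in the 3 shNC libraries (blue) and the 3 shPAK5 libraries (red), with mean and SD as bars and a marker for each replicate number. The groups are separate for ACTG1, ACTB and PFN1 only, and for DSTN and CFL2 the circle of shNC replicate 1 sits among the shPAK5 libraries.

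None of the 10 genes passed limma on log2(FPKM + 1) at an adjusted p of 0.05, against 0.116% of the 11237 genes tested, which are those at 1 FPKM or more on average (0.089% higher and 0.0267% lower). At an unadjusted p under 0.05, ACTB, PFN1, ACTN4 and DSTN were counted, 4 of 10 against 17% of all tested genes, and limma-voom counted 5 against 19.3%. limma-voom on the recovered reads called 1 of the 10 after adjustment, ACTB as lower (adjusted p = 0.0498), against 1.12% of all genes. Groups did not overlap for 3 of the 10, all lower in shPAK5, against 23.1% of tested genes in either direction, 10.5% in that direction and 12.6% in the other. The median log2 difference was -0.06 over the 10 genes and 0.00 over all tested genes, and 8 of 10 were below 0 against 48.7% of all. After the GC correction described next, the median was -0.03 against -0.01, and 6 of 10 were below 0 against 53.7%. The 95% intervals of all 10 lay between -0.23 and 0.39, so differences beyond that range are outside these intervals.

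Library shNC replicate 1 and GC content both moved with these values. Without shNC replicate 1, 4 of the 10 passed in limma: ACTB at a log2 difference of -0.15 (adjusted p = 0.0334), PFN1 at -0.16 (adjusted p = 0.0474), ACTN4 at -0.17 (adjusted p = 0.0404) and DSTN at 0.29 (adjusted p = 0.0329), in a fit where 8.34% of all tested genes passed. Without shNC replicate 2, DSTN was at 0.11 (limma adjusted p = 0.535). The genes that were lower have transcripts of high GC content, 59.3% in ACTB, 58.2% in PFN1 and 59.4% in ACTN4, while DSTN has 42.0% and CFL2 37.7%. Over all tested genes the median log2 difference went from 0.12 for genes up to 40% GC to -0.05 for genes of 55 to 60% GC, where 72.6% of genes were below 0. After a correction of each library for GC content, the log2 difference was -0.09 for ACTB (limma adjusted p = 0.186), -0.10 for PFN1 (limma adjusted p = 0.194), -0.08 for ACTN4 (limma adjusted p = 0.255) and 0.11 for DSTN (limma adjusted p = 0.317), and CFL2 went from 0.16 to 0.02. None of the 10 passed with the correction, with all libraries or without shNC replicate 1, where 0.338 and 0.151% of all tested genes passed. ACTB, ACTG1, ACTN4 and PFN1 were without overlap between groups after the correction, all lower, against 24% of all tested genes in either direction and 13.2% lower. The correction takes out any difference between libraries that follows GC content, whatever its source. The cause of the differences in these genes was not tested.

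**Figure D3:**
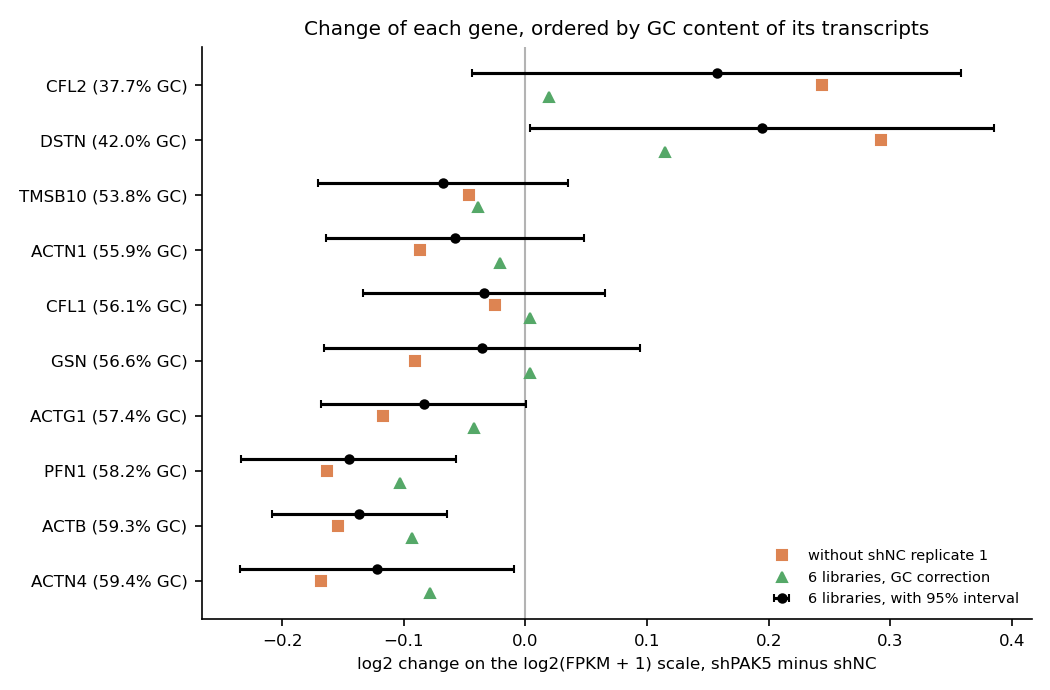
Log2 difference, shPAK5 minus shNC, for each gene from top to bottom by rising GC content, with all 6 libraries and its 95% interval (black), without shNC replicate 1 (orange) and with the GC correction (green). ACTB, PFN1 and ACTN4 stay below 0 and DSTN above 0 under all 3, and the green symbols lie nearer to 0 than the black ones.

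**Figure D4:**
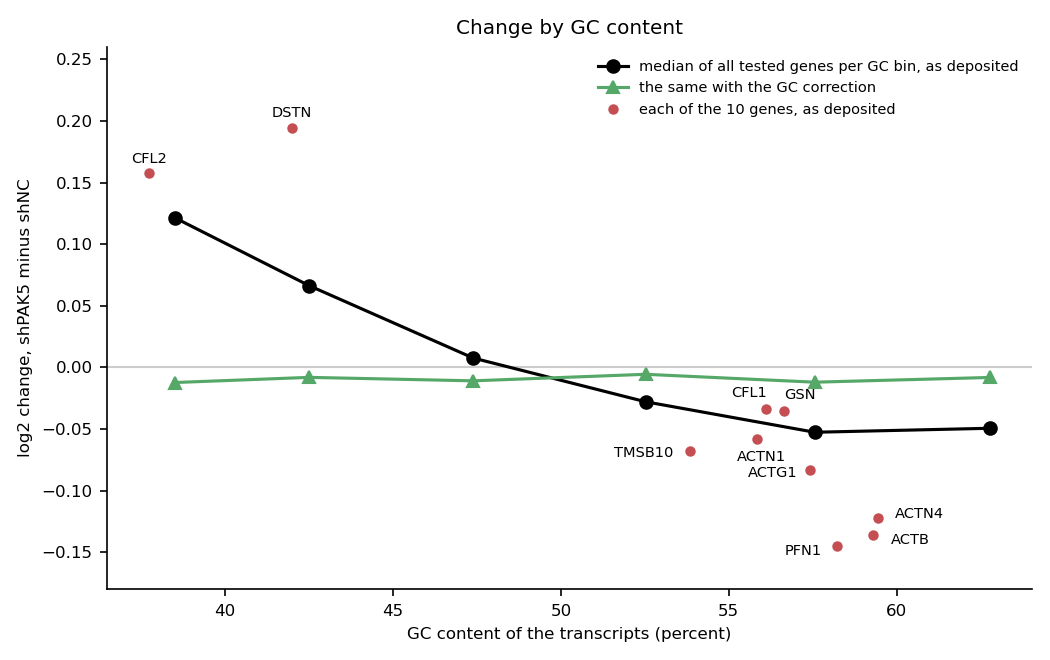
Log2 difference against the GC content of the transcripts, for the 10 genes (red) and as the median of all tested genes in 6 GC ranges, as deposited (black) and after the GC correction (green). The black line runs from 0.12 at low GC to -0.05 at high GC, and CFL2 and DSTN lie at its left end while the other 8 lie to the right.

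The related genes of the actin system, 118 of 121 listed names present in the table and 85 tested, gave 1 gene past the threshold in limma, higher in shPAK5, and 0 lower, against 0.116% of all tested genes. At an unadjusted p under 0.05, 18 of the 85 were counted against 17% of all. It was VIL1, the gelsolin relative villin that bundles actin in microvilli, at 6.37 ± 0.170 FPKM in shNC and 8.93 ± 0.168 FPKM in shPAK5 (SD, n = 3), a log2 difference of 0.43 ± 0.05 (SE, limma adjusted p = 0.0261). Of its exonic bases 44.0% overlap USP37, and the reads on those bases are of uncertain origin. The other gelsolin relatives did not pass, with CAPG at 158.5 ± 8.11 and 149.5 ± 4.69 FPKM and FLII at 49.1 ± 3.48 and 47.5 ± 1.77 FPKM. limma-voom called 3 of the 85, against 1.12% of all, VIL1 and in addition ADD3, an adducin that caps filaments (adjusted p = 0.0450), and WASL, which activates the Arp2/3 complex (adjusted p = 0.0360), all higher. Without shNC replicate 1, 15 of the 85 passed in limma, 11 higher and 4 lower, against 8.34% of all, while without any 1 of the other 5 libraries 0 did, and VIL1 then had limma adjusted p-values from 0.0835 to 0.193 at log2 differences from 0.42 to 0.45.

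Of the kinases and phosphatases that act on cofilin, LIMK1 was at 9.38 ± 0.443 FPKM in shNC and 8.93 ± 0.116 in shPAK5 (SD, n = 3), LIMK2 at 1.62 ± 0.138 and 1.59 ± 0.287, and the slingshot phosphatase gene SSH3 at 49.4 ± 3.41 and 48.2 ± 0.399 FPKM. Of the 15 tested genes of cofilin control and filament turnover, 10 were below 0 and none passed in limma or limma-voom (CORO1C, a coronin, had 56.0 ± 0.371 and 52.5 ± 2.30 FPKM). Of the PAK kinases, PAK1 had 13.5 ± 0.283 FPKM in shNC against 13.6 ± 0.509 in shPAK5, PAK2 had 18.7 ± 1.25 against 20.9 ± 1.28, PAK4 had 13.4 ± 0.960 against 12.8 ± 0.374 and PAK6 had 0.688 ± 0.105 against 0.717 ± 0.118 FPKM, while PAK3 had 0 reads. The GTPase genes RHOA and RAC1 were at 236 ± 22.3 and 239 ± 1.36 FPKM and at 94.9 ± 6.30 and 97.0 ± 3.28 FPKM, and none of the 9 tested genes of this list passed.

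Among nucleators, 7 of the 9 Arp2/3 subunit genes were above 0, with a median log2 difference of 0.09, and none passed in limma. After the GC correction the median was 0.00, when 4 of the 9 were below 0. With 1 library left out the median ranged from 0.01 without shNC replicate 2 to 0.18 without shNC replicate 1. ARPC1A was at 98.6 ± 10.6 FPKM in shNC and at 111 ± 3.71 in shPAK5 (SD, n = 3), with 58.4% of its exonic bases inside exons of AC004922.1, and ACTR2 was at 71.0 ± 9.02 and 78.3 ± 2.78 FPKM. Of the 11 tested nucleation promoters, formins and elongators 8 were below 0 and none passed in limma, while limma-voom called WASL. Without shNC replicate 1 or without shPAK5 replicate 3, 5 of the 11 were below 0. CTTN, which encodes cortactin, was at 84.7 ± 4.35 and 78.4 ± 0.609 and VASP at 55.5 ± 2.16 and 51.1 ± 1.16 FPKM. Of the 7 tested capping genes 4 were above 0, or 3 after the GC correction, and none passed in limma, while limma-voom called ADD3, with CAPZB at 64.0 ± 1.29 and 61.3 ± 4.26, CAPZA1 at 45.3 ± 4.45 and 47.3 ± 0.737 and ADD3 at 37.1 ± 3.60 and 44.5 ± 1.45 FPKM.

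Among crosslinkers and motors, 7 of the 10 tested crosslinker genes were below 0 (5 without shNC replicate 2 or without shPAK5 replicate 3) and none passed in limma, with EZR at 83.5 ± 2.03 and 81.4 ± 2.13 and FLNA, which encodes filamin A, at 75.7 ± 6.33 and 66.5 ± 1.61 FPKM (SD, n = 3). Of the 8 tested tropomyosin and myosin II genes 4 were above and 4 below 0 and none passed, with MYL12B at 174 ± 7.37 and 169 ± 2.74 and TPM2 at 161 ± 7.39 and 171 ± 1.43 FPKM.

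SRF is the transcription factor that, with the actin-sensing cofactors MRTFA and MRTFB, drives actin genes. All 9 tested genes of the list of SRF, its cofactors and targets were below 0, with a median log2 difference of -0.09, and 6 of the 9 had groups without overlap, all lower, against 10.5% of all tested genes. None passed in limma. The 9 genes had a median GC content of 57.2%, while the 10.5% covers genes of all GC contents. Among all tested genes of 55 to 60% GC, 72.6% were below 0. After the GC correction 8 of the 9 were below 0 with a median of -0.08, and over all tested genes the median was then -0.01. Under TPM, TMM and quantile scaling all 9 were below 0, and 8 were when shNC replicate 2, shNC replicate 3 or shPAK5 replicate 1 was left out. TAGLN2, a calponin relative, was at 200 ± 6.55 FPKM in shNC and 188 ± 3.71 in shPAK5 (SD, n = 3), CNN2 at 39.1 ± 2.13 and 38.2 ± 0.353, and SRF itself at 10.1 ± 0.545 and 8.85 ± 0.786 FPKM (limma adjusted p = 0.278). These counts are a description of the list, which was chosen with earlier results of these data known, with no test of the list as a whole.

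**Figure D5:**
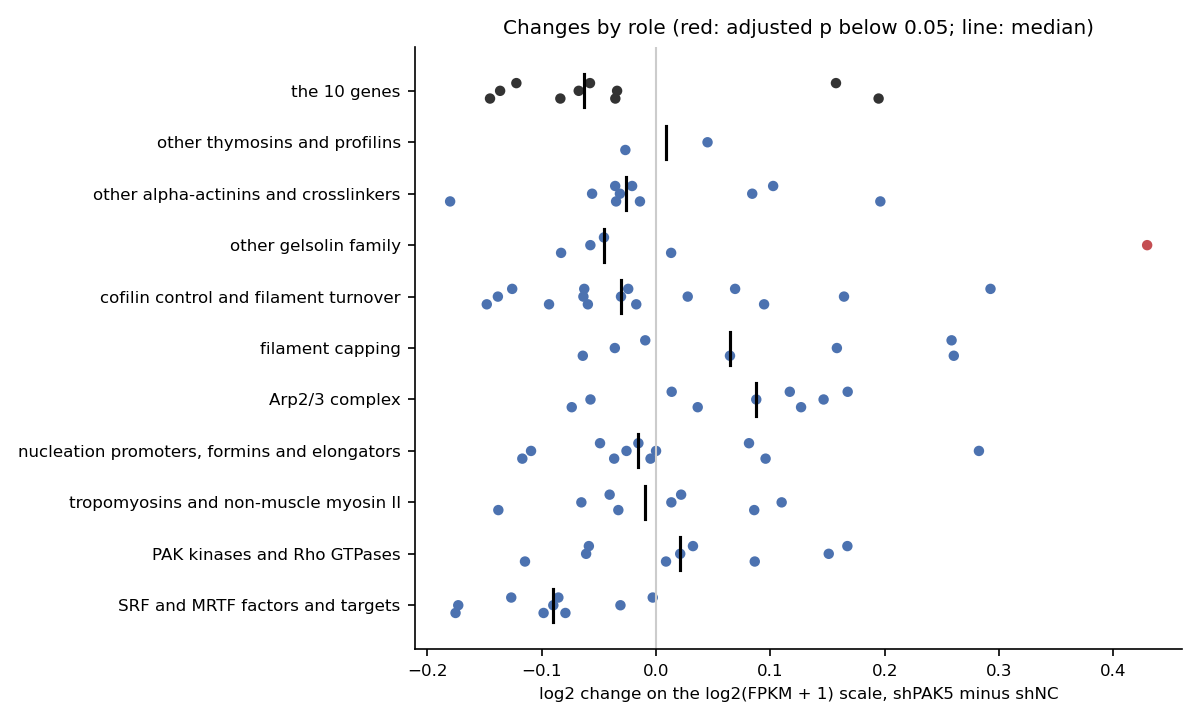
Log2 difference of each tested gene, shPAK5 minus shNC, for the 10 genes (black) and for the related actin genes by role (blue), with the median of each group as a line. VIL1 (red) is the only gene past an adjusted p of 0.05 in limma, and all genes of the SRF list lie below 0.

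The binding site of SRF, the CArG box (CC, then 6 bases that are each A or T, then GG, which reads as a CArG box on both strands), was looked for in RefSeq promoters of GRCh38.p14 from 250 bases before to 50 after the start. Of the 10 genes 9 had an entry, with 19 promoters between them, and ACTB had none. A CArG box stood in 2 of the 19, against 1.29% of 35116 promoters in all. Both matches are shown in capitals with 10 bases on each side, 5′ to 3′ on the minus strand on which the genes lie. They are shown because they match the kind of sequence that SRF is known to bind.
ACTG1, chr17:81512874-81512903: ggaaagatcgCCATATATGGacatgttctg
ACTN1, chr14:68977718-68977747: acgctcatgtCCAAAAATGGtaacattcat
The box starts 94 bases before 1 RefSeq start of ACTG1 and 171 bases before 1 RefSeq start of ACTN1, and both of these starts lie inside the GENCODE span of the gene. A match is a description of the letters, and no binding was measured.

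By the rule for likeness, the genes whose values over the 6 libraries ran most like those of ACTB, among 2112 other protein-coding genes at 20 FPKM or more, were PSMC4, a proteasome subunit (Pearson r = 0.998), CDC42EP1, an effector of CDC42 (r = 0.995), and SLC7A5, an amino acid transporter (r = 0.994). They were chosen for this likeness, the libraries share their GC trend, and none passed in limma. CDC42EP1 was at 54.4 ± 2.56 FPKM in shNC and 45.8 ± 0.536 in shPAK5 (SD, n = 3), PSMC4 at 52.6 ± 1.70 and 46.8 ± 0.488, and SLC7A5 at 97.3 ± 3.56 and 79.6 ± 0.120 FPKM.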

How the data were processed

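The authors deposited FPKM per gene for 6 libraries (3 shNC, 3 shPAK5, grouped by title), with exonic gene lengths, per the file headers. The sources used here name no aligner, counting tool, strand setting or read length. The submitters' processing notes name mm10, but all 58735 gene IDs, coordinates and lengths matched human GENCODE 29 (GRCh38). In each library, 100% of the products of FPKM and length were multiples of a single step (relative tolerance 0.001), which gives whole reads. The totals used for FPKM follow median-of-ratios size factors.

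The test was limma 3.58.1 (R 4.3.3; lmFit, eBayes with trend) on log2(FPKM + 1), with group alone in the model, over the 11237 genes averaging 1 FPKM or more, with Benjamini-Hochberg adjustment at 0.05. Fold changes on this scale understate those of low genes. The alternatives included limma-voom on the recovered reads, other pseudocounts, filters and scalings, array weights, pseudogene reads added, a loess correction for GC content (span 0.3) and each library left out. The GC correction without shNC replicate 1 and the levels per principal transcript were chosen after seeing the data. Transcripts and identities came from GENCODE 29, promoters from RefSeq. The limma and limma-voom fits and the TMM scaling were tried on simulated data. The simulation did not cover the GC correction, the array weights or the sequence searches. The members and lists were chosen with earlier results of these data known. All 10 genes are named, with the genes of each related list past the threshold, or otherwise its 2 most abundant genes, the PAK kinases and the other actins, while CAPG, FLII, LIMK1, LIMK2, ADD3, WASL, SRF, CDC42, the other thymosins and alpha-actinins without reads to test and the cell markers were chosen after their values were seen. Figures were drawn with matplotlib 3.10.9 in Python 3.11.15.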

Additional observations from a re-analysis of the deposited data

How the results depend on the processing

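Of the 10 actin genes 0 passed under each alternative with all 6 libraries except array weights, which gave 7 (28.4% of all tested genes passed then), and limma-voom, which gave 1, and leaving out 1 library gave 0 to 4, with 4 only without shNC replicate 1. Of the related genes 1 passed, against 0 with no filter, 31 with array weights, 3 with limma-voom and 0 to 15 with 1 library left out. Over all genes 13 passed, against 7 with no filter, 31 at a mean of at least 5 FPKM, 20 with quantile normalization, 3187 with array weights, 126 with limma-voom, 64 among protein-coding genes only, 38 with the GC correction and 2 to 937 with 1 library left out. Groups without overlap numbered 3 among the 10 genes, 1 with quantile normalization (23.1% of all tested genes in both cases) and 3 to 8 with 1 library left out. The 8 were without shNC replicate 1, where 49.6% of all tested genes had no overlap, against 29.3 to 33.4% without any 1 of the others.

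The log2 difference of CFL1 turned to 0.0038 with the GC correction and to 0.040 with it and without shNC replicate 1. That of GSN turned to 0.0039 with the GC correction, and with 1 library left out it ranged from -0.091 to 0.0058, the latter without shNC replicate 2. The cause was not tested. CFL2 has no value at the filter of 5 FPKM.

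Deviations of same-numbered libraries from their group means correlated at 0.07, -0.02 and 0.01, and those of differently numbered libraries at -0.08 to 0.08. Such correlations cannot show whether the libraries were made in pairs, which the labels do not state. With the replicate block 2 genes passed over all, 0 of the related genes and 0 of the 10. The depth of 369 reads or more per library limits CFL2 most.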

Other observations

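CDC42, which encodes a GTPase upstream of PAK kinases, was listed at 0.245 ± 0.00678 FPKM in shNC and 0.296 ± 0.0454 FPKM in shPAK5 (SD, n = 3), with 98 reads over 6 libraries, while RHOA was at 236 ± 22.3 and 239 ± 1.36 FPKM. Exons of other annotated genes cover 59.4% of the exonic bases of CDC42, and how reads on such bases were counted is not given in the sources used here.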
